A study of Mus musculus with 3 samples.

Results

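The genes that make prostaglandins and receive the prostaglandin E2 signal were followed through the transcriptome of wounded fibroblasts under MEK inhibition. Their members, chosen by gene name, were Pla2g4a, Ptgs1, Ptgs2, Ptges, Ptges2, Ptges3, Ptgis, Ptgds, Ptger2 and Ptger4, which are 10 of the 43472 named rows measured. All 3 libraries came from primary fibroblasts that had been isolated by collagenase IV from the tail end of C57BL/6 mice and scratched in culture as a wound model. Each received the soluble micrograft (MG), the filtered fraction of mechanically disrupted mouse skin diluted 1:10 in growth medium, together with the MEK inhibitor PD0325901 at 1 µM, for 5 h. The labels call the libraries biological replicates 1, 2 and 3 of this 1 condition. They give no age, sex or pooling of the mice, and whether 1 or several cultures stand behind a library is not stated. Untreated and MG-only cells were not analysed here, so the data describe levels and the spread between replicates and hold no effect of MG or of the inhibitor.

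Prostaglandins are lipid signals made on demand. Cytosolic phospholipase A2 frees arachidonic acid from membranes, the cyclooxygenases turn it into prostaglandin H2, and terminal synthases convert that intermediate into prostaglandin E2, prostacyclin, prostaglandin D2 and the other prostanoids, which leave the cell and bind G protein-coupled receptors. In skin wounds, fibroblasts are a known source of prostaglandin E2, and the inducible cyclooxygenase gene Ptgs2 is a textbook early response gene to serum, growth factors and inflammatory cytokines.

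Reads on genes numbered between 17244505 and 27037783 per library. Values are normalized counts, that is, reads divided by 1 size factor per library, so that a single read was worth between 0.705 and 1.19 normalized counts. All 9 fibroblast markers were detected in every library, among them Col1a1, Col1a2, Col3a1 and Vim, and of the 6 keratinocyte markers 5 had at most 2 reads in a library, while Krt10 had 93, 56 and 27 reads in replicates 1, 2 and 3. Of 8 leukocyte and macrophage markers 4 were detected. Ptprc, the pan-leukocyte gene, had at most 2 reads, whereas Csf1r had 66, 254 and 136 and the macrophage genes Adgre1 and Laptm5 reached 20 and 31 reads in replicate 3. Replicate 2 stood apart most often. Of 13154 genes that averaged 10 or more normalized counts, 10.1% lay over 2-fold from both other libraries there, against 4.26% for replicate 1 and 3.58% for replicate 3. Thy1, a fibroblast surface marker, measured 2031, 15760.0 and 1652 normalized counts in replicates 1, 2 and 3, whereas Lum, a matrix proteoglycan, measured 5073, 289 and 1164.

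Ptgs2 was by far the most abundant member. Of the 10 genes, 8 were detected, meaning that no library had fewer than 10 normalized counts. The exceptions were Ptgds, which had no reads, and Ptger2, which passed 10 in replicates 1 and 2. In 3 of the 8 detected members (Ptgs1, Ptges and Ptgis) the highest library was more than 2-fold above the lowest on the log2(normalized count + 1) scale, where 21.6% of 12204 detected genes showed such a range. A count of 3 in so short a list is no result about the members as a group. The detected members had a median SD of 0.37 on this log2 scale, beside 0.30 for all detected genes. When replicate 2 was left out, only Ptgis of the 8 kept a range above 2-fold, and the share of all detected genes with such a range was then 6.06%.

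**Figure D1:**
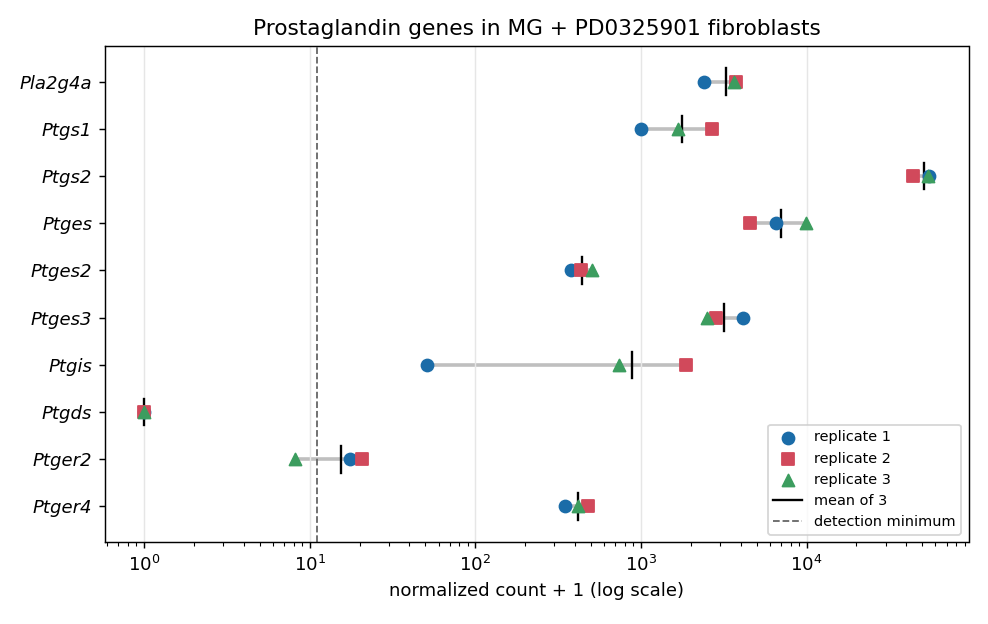
Normalized count + 1 (log axis) of the 10 members in each library, with a symbol per replicate, a grey line from the lowest to the highest library, a black tick at the mean of 3 and a dashed line at the detection minimum of 10 normalized counts. Ptgs2 lies between 44099 and 55003 in all libraries, Ptgis runs from 50.4 to 1870.0, and Ptgds has no reads.

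The pathway starts with Pla2g4a, which encodes cytosolic phospholipase A2, the calcium-dependent enzyme that cuts arachidonic acid from phospholipids. It measured 2386, 3727 and 3652 normalized counts in replicates 1, 2 and 3 (mean 3255 ± 753, SD, n = 3). Replicate 1 was the low one, and the other libraries differed from each other by 1.02-fold, which was within counting error (two-sided exact binomial test on the reads of replicates 2 and 3, adjusted p = 0.451). Such a test between libraries covers counting error and compares those libraries, not conditions.

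Ptgs2 encodes cyclooxygenase 2, the inducible enzyme that makes prostaglandin H2. It measured 55003, 44099 and 54200.1 normalized counts, from 63343, 62587 and 45728 reads, and its mean was 51101 ± 6077 (SD, n = 3). Replicates 1 and 3 were nearly equal and replicate 2 was lowest, 1.23-fold below the next library. With an SD of 0.18 on the log2 scale it was the steadiest of the members with reads. Per kb of exon its levels were 12009, 9629 and 11834 normalized counts, which ranked 59th, 56th and 58th among the 18858 genes that had reads and a length. Anxa1, the abundant annexin that serves as a glucocorticoid-induced brake on phospholipase activity, stood at a like level per kb, with 12894, 11973 and 12311 normalized counts.

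Ptgs1 encodes cyclooxygenase 1, the form usually present without stimulation. It measured 994, 2679 and 1665 normalized counts (mean 1779 ± 848, SD, n = 3). Replicate 1 was lowest and replicate 2 highest, 2.69-fold apart, and of the pairs only this one was called between libraries. A pair was called where the exact binomial test gave a Benjamini-Hochberg adjusted p under 0.05 together with more than a 2-fold difference. The 2 cyclooxygenase genes therefore took opposite places in replicate 2, where Ptgs1 was at its highest and Ptgs2 at its lowest. Per kb, Ptgs2 exceeded Ptgs1 by 46.9-fold in replicate 1, 14.0-fold in replicate 2 and 27.6-fold in replicate 3, so the ratio itself moved by 3.36-fold between libraries while Ptgs2 was the higher gene in each.

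The letters upstream of these genes also differ. Shown here, because Ptgs2 and Ptgs1 make the same product from genes at very different levels and Ptges follows them in the pathway, are the 250 bases before the RefSeq start of each (GRCm38.p6), 5′ to 3′ on the gene's strand. Capitals mark matches to the motif letters that were searched on both strands. For Ptgs2 the window is chr1:150099781-150100030 on the plus strand, for Ptgs1 chr2:36230176-36230425 on the plus strand, and for Ptges chr2:30903298-30903547 on the minus strand.
Ptgs2: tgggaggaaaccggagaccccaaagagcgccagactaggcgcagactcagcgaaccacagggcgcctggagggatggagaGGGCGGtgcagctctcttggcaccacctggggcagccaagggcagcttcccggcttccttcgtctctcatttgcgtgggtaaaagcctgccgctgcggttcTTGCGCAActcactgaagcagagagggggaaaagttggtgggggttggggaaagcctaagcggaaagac
Ptgs1: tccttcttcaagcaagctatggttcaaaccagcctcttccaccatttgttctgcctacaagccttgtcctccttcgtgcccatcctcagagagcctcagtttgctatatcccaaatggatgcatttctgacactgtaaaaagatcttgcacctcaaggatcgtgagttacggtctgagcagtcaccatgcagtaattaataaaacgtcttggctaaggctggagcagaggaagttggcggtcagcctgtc
Ptges: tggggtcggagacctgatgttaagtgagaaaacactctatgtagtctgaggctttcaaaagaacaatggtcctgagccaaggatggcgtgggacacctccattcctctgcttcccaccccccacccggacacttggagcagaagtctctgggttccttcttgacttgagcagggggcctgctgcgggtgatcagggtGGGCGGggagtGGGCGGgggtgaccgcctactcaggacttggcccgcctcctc
The search covered 300 bases, from 250 before to 50 after the start, and 9 of the 10 members had such a window. Ptgis had none. In the Ptgs2 window a C/EBP motif (TTNCGNAA) lay at -69 to -62 and an Sp1 motif (GGGCGG) at -170 to -165, counted from the start at +1. Over all 32851 windows, 2.47% held the C/EBP letters and 35.7% the Sp1 letters. Just after the start, a cAMP response element core (TGACG, read on the minus strand) at +14 to +18 overlapped an E-box (CACGTG) at +17 to +22, and those letters were found in 20.8% and 7.15% of windows. The 30 bases from +12 to +41 that hold the overlapping pair, chr1:150100042-150100071, are shown with both motifs in capitals.
Ptgs2 start: taCGTCACGTGgagtccgctttacagactt
No AP-1 letters (TGANTCA, in 7.81% of windows) and no NF-kB letters (GGGNNTTCC, in 5.82%) were in the Ptgs2 window, and none of the motifs searched was in that of Ptgs1. The Ptges window held a pair of Sp1 matches, at -53 to -48 and at -42 to -37. Egr letters (GNGGGGGCG, in 7.74% of windows) and TATA box letters (TATAAA, in 13.6%) were absent from these 3 windows. Elsewhere among the members, Ptger4 held Egr and Sp1 letters, Ptges3 held Sp1 letters and the cAMP element core, Ptges2 an E-box and Ptgds an AP-1 match at -35 to -29. The window of a second start of Pla2g4a held the TATA box letters on the minus strand, at -200 to -195. A match is a description of letters only, and no factor binding was measured in these libraries.

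GC content set the windows apart as well. It was 61.6% before Ptgs2, 59.6% before Ptges and 48.0% before Ptgs1, beside a median of 52.4% over all windows. The RefSeq start of Ptges lies inside the GENCODE model of the gene (chromosome 2, 30889471 to 30929863, minus strand), which reaches further upstream than the RefSeq start.

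Ptgs2 sits on chromosome 1 (GRCm38, 150100031 to 150108227, plus strand), and long noncoding RNA genes flank it. Ptgs2os starts 67 bases upstream on the opposite strand, head to head with Ptgs2. Ptgs2os2 is also on the minus strand, and its nearer end, which is its 3′ end, lies 50815 bases past the end of Ptgs2. Pla2g4a lies on the same chromosome, 138740 bases before Ptgs2, so the genes for the first and the next step of the pathway lie close together. Ptgs2os measured 179, 165 and 178 normalized counts, and Ptgs2os2 measured 629, 577 and 550.0. Both stayed within 1.14-fold over the libraries. Ptgs2os, like Ptgs2, had its lowest value in replicate 2, but that library was within counting error of replicates 1 and 3 (exact binomial test, adjusted p = 0.476 and 0.573). Per kb, Ptgs2 was between 253-fold and 291-fold above Ptgs2os, and between 29.1-fold and 37.5-fold above Ptgs2os2. The neighbouring phospholipase gene had another order, with its lowest level in replicate 1, and Ptgs2 exceeded it per kb by 32.2-fold, 16.5-fold and 20.7-fold in replicates 1, 2 and 3.

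**Figure D2:**
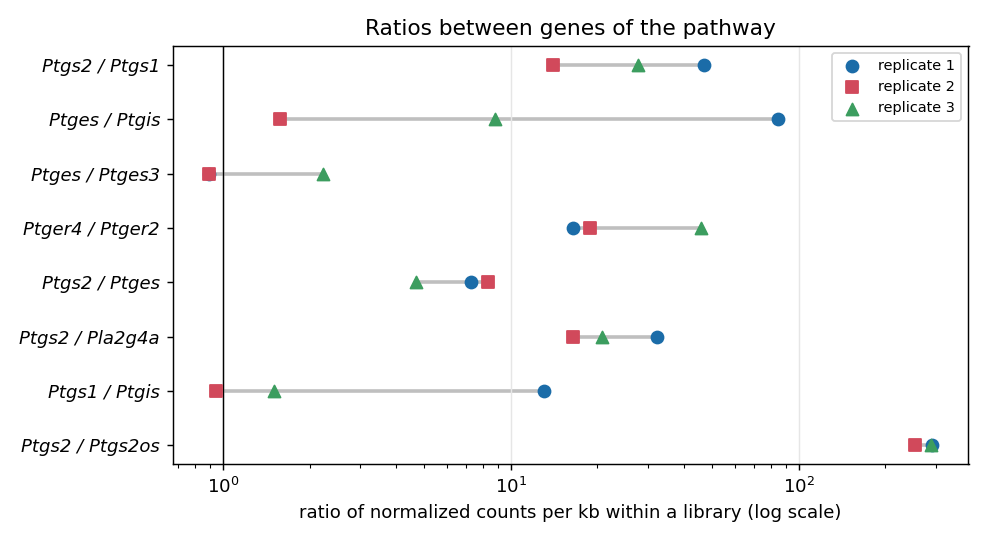
Ratio of normalized counts per kb of exon between pairs of genes within each library (log axis), with a symbol per replicate and a grey line from the lowest to the highest ratio. Ptgs2 over Ptgs2os moves by 1.15-fold between libraries and Ptges over Ptgis by 53.5-fold.

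Ptges encodes the microsomal prostaglandin E synthase that is induced together with cyclooxygenase 2 in many cells. It measured 6516, 4526 and 9908 normalized counts (mean 6983 ± 2721, SD, n = 3). Replicate 3 was highest and replicate 2 lowest, and that pair, 2.19-fold apart, was the 1 pair called for this gene. Per kb its levels were 1658, 1151 and 2520.4 normalized counts. Ptgs2 exceeded it by 7.25-fold, 8.36-fold and 4.70-fold in replicates 1, 2 and 3, and both genes had their lowest level in replicate 2. Among the markers of other cells, Cd14 at 174, 141 and 329.5 normalized counts and Lyz2 at 123, 62.7 and 601, both of myeloid cells, ordered the libraries as Ptges did. The cartilage and tendon markers Comp, at 2900.3, 387 and 3082, and Acan also had that order. Replicates 1 and 3 of Comp were 1.06-fold apart, and Acan, with 5, 0 and 31 reads, was not detected. The 6 cartilage and tendon markers together did not have it, with sums of 17208, 1059.7 and 5557. The melanocyte marker Pmel, not detected at 10, 5 and 16 reads, had the order of Ptges too. Its replicate 1 was within counting error of replicates 2 and 3 (exact binomial test, adjusted p = 0.155 and 0.12). The fibroblast marker Col1a1 had that order at 157553, 154124 and 246175, with replicates 1 and 2 1.02-fold apart. The 9 fibroblast markers together did not, with sums of 344414, 384018 and 509724, and 5 of them were lowest in replicate 1. The 8 leukocyte and macrophage markers together did not have the order of Ptges, with sums of 380.3, 429.8 and 1196. Csf1r and Cd68 among them were highest in replicate 2. For both, replicates 2 and 3 were within counting error of each other (exact binomial test, adjusted p = 0.424 and 0.616). The sums of 9 smooth muscle and pericyte markers, all detected, had the order of Ptges at 286986, 279225 and 354654, but of these genes Tagln alone had it. The part of such cells in the Ptges levels was not tested.

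Prostaglandin E2 can also be made by other synthases. Ptges3, whose product p23 is better known as a co-chaperone of Hsp90, measured 4111, 2856 and 2515 normalized counts (mean 3161 ± 840.3, SD, n = 3). Its level was highest in replicate 1, and no pair of libraries differed by more than 1.63-fold. Per kb, Ptges was below Ptges3 in replicates 1 and 2, with a ratio of 0.894 in each, and above it in replicate 3, with a ratio of 2.22, so these genes could not be ordered. Ptges2, a membrane-associated synthase, was far lower, at 379, 435 and 508 normalized counts (mean 441 ± 64.7, SD, n = 3), and its highest library was 1.34-fold above its lowest. Ptges3 has a processed pseudogene copy, Ptges3-ps. By the study's methods only reads that mapped uniquely were included, and how many Ptges3 reads this left out is not known.

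Ptgis was the member that varied most. It encodes prostacyclin synthase, a cytochrome P450 enzyme that makes the vasodilator prostacyclin. It measured 50.4 normalized counts in replicate 1, 1870.0 in replicate 2 and 736 in replicate 3, from 58, 2654 and 621 reads (mean 885 ± 919, SD, n = 3). Exact 95% Poisson intervals, which cover counting error only, were 38.2 to 65.1, 1799.6 to 1943 and 679 to 796. No library's interval touched another's, and all 3 pairs were called. The gene was more than 2-fold below both other libraries in replicate 1, 14.6-fold under the next, and more than 2-fold above both others in replicate 2, 2.54-fold over the next. Its mean was 393 without replicate 2 and 1303 without replicate 1. Without replicate 1 the remaining libraries still differed by 2.54-fold, and without replicate 2 they differed by 14.3-fold on the log2(normalized count + 1) scale.

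Because the tissue of origin can hold vessel and muscle cells that make prostacyclin, the markers of those cells were read beside Ptgis. In bulk samples, fewer cells of a type and less RNA per cell cannot be told apart. Endothelial markers summed to 90.3, 244 and 55.7 normalized counts over 5 genes, of which 1 was detected in every library. Most of the replicate 2 sum came from Tek, an angiopoietin receptor, at 6.95, 185 and 2.37 normalized counts. The smooth muscle and pericyte markers did not move as one. Of the 9, 3 were highest in replicate 2, namely Notch3 at 40.8, 228 and 23.7, Mcam at 886, 1496 and 544 and Myh11 at 1383, 1587 and 584, and 2 were lowest there. Of the skeletal muscle markers Myod1, Myf5 and Pax7 were at 0. Acta1, the skeletal actin gene, ordered the libraries as Ptgis did, at 2429, 7286 and 5586, and gave the list's sums of 2641, 8494 and 5663 that order, while Des measured 212, 1208 and 77.0. The 6 cartilage and tendon markers summed to 17208, 1059.7 and 5557, the reverse order. Most of the replicate 1 sum came from Col2a1, at 11538, 229 and 833, and of these genes only Col2a1 and Scx had that order. Comp and Acan were highest in replicate 3, Tnmd was highest in replicate 2 and Sox9 was lowest in replicate 3. The part of these differences in the Ptgis result was not tested.

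Ptgds, the lipocalin-type prostaglandin D synthase, had no reads. A count of 0 allows up to 2.61, 2.11 and 3.56 normalized counts in replicates 1, 2 and 3 (3 reads, for counting error only). Hpgds, the haematopoietic prostaglandin D synthase found in mast cells and some lymphocytes, had 1 read in all, in replicate 3, and mast cell markers summed to 0, 4.93 and 0 normalized counts over 5 genes. Neither receptor for prostaglandin D2, Ptgdr or Ptgdr2, had any read. The genes of the prostaglandin D2 branch, synthases and receptors, were thus at or near 0.

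Ptger4 encodes EP4 and Ptger2 encodes EP2, the prostaglandin E2 receptors that raise cAMP. Ptger4 measured 349, 476 and 417 normalized counts (mean 414 ± 63.7, SD, n = 3), and its highest library was 1.36-fold above its lowest. Ptger2 measured 16.5, 19.7 and 7.11 normalized counts, from 19, 28 and 6 reads (mean 14.4 ± 6.55, SD, n = 3). Replicate 3 lay more than 2-fold below both other libraries, yet 6 reads give a 95% Poisson interval of 2.61 to 15.5 that overlaps the 9.93 to 25.8 of replicate 1. The pair of replicates 1 and 3 was not called (exact binomial test, adjusted p = 0.118), while that of replicates 2 and 3 was (adjusted p = 0.0331, 2.56-fold). Per kb, Ptger4 exceeded Ptger2 by 16.5-fold, 18.9-fold and 45.8-fold. Ttc33, a gene on the opposite strand whose exons overlap those of Ptger4, measured 474, 371 and 408 normalized counts, the reverse order, and the sources used here do not say whether reads were counted by strand. Ptger2, Ptgis and Ptgs1 also have annotated antisense transcripts over their exons. Where these had a row (Gm17173 over Ptger2, 1110018N20Rik over Ptgis), they held at most 5.93 normalized counts in a library.

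**Figure D3:**
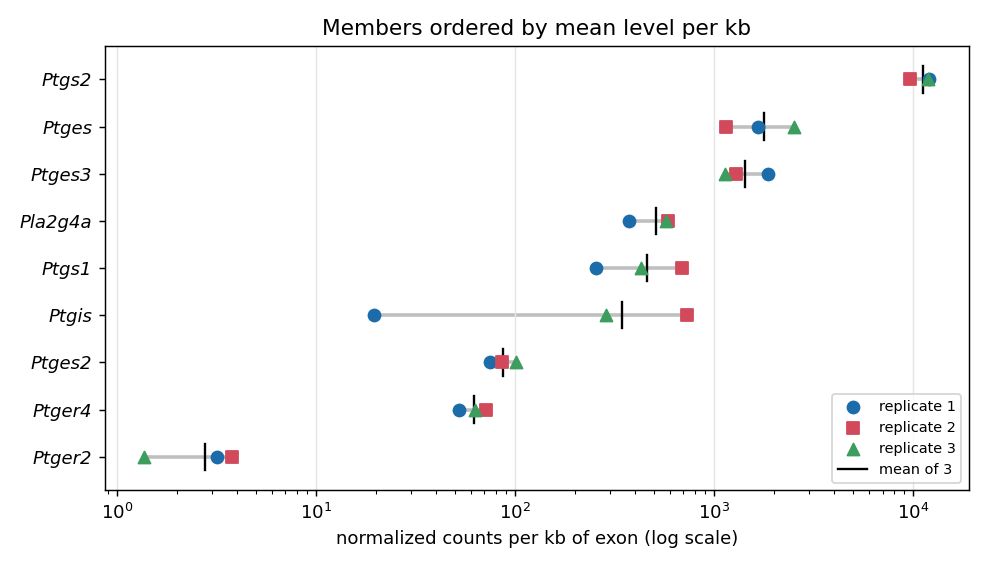
Normalized counts per kb of exon (log axis) of the 9 members with reads, ordered by the mean of 3 libraries, with a symbol per replicate, a grey line from the lowest to the highest library and a black tick at the mean. Ptgs2 stands clear of all others, its lowest library 3.82-fold above the highest of Ptges, and the ranges of Pla2g4a, Ptgs1 and Ptgis overlap.

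By mean level per kb the order ran Ptgs2, Ptges, Ptges3, Pla2g4a, Ptgs1, Ptgis, Ptges2, Ptger4, Ptger2 and Ptgds. Neighbours in this order whose ranges over the 3 libraries overlapped were Ptges and Ptges3, Pla2g4a and Ptgs1, Ptgs1 and Ptgis, and Ptgis and Ptges2. Ranges did not overlap between Ptgs2 and Ptges, between Ptges3 and Pla2g4a, between Ptges2 and Ptger4, and between Ptger4 and Ptger2. The step from Ptges2 to Ptger4 was narrow, the lowest library of the former being 1.05-fold above the highest of the latter, and with the length of the longest transcript in place of all exons these genes changed places. Ptgs2 alone made up 73.7%, 67.7% and 69.9% of the summed level per kb of the members in replicates 1, 2 and 3. Ptgis moved from 0.120% in replicate 1 to 5.12% in replicate 2 and 1.69% in replicate 3, and had rank 8 in replicate 1, rank 4 in replicate 2 and rank 6 in replicate 3 among the 10 members.

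Each replicate was more than 2-fold from both others in 1 of the 9 members that averaged 10 or more normalized counts: Ptgis below in replicate 1, Ptgis above in replicate 2 and Ptger2 below in replicate 3. Between pairs of libraries, 9 members had at least 10 reads and were tested. Replicates 1 and 2 gave 2 calls (Ptgs1 and Ptgis), where 20.3% of 14771 genes were called. Replicates 1 and 3 gave 1 call (Ptgis), where 9.27% of 14316 genes were called, and replicates 2 and 3 gave 3 calls (Ptges, Ptgis and Ptger2), where 16.4% of 14344 genes were called. Counts this small among 9 members are read as a description of the named genes, not as a result about the group. With the adjusted p alone, 8, 8 and 7 of the 9 members passed, beside 69.0%, 51.9% and 62.6% of all genes tested.

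**Figure D4:**
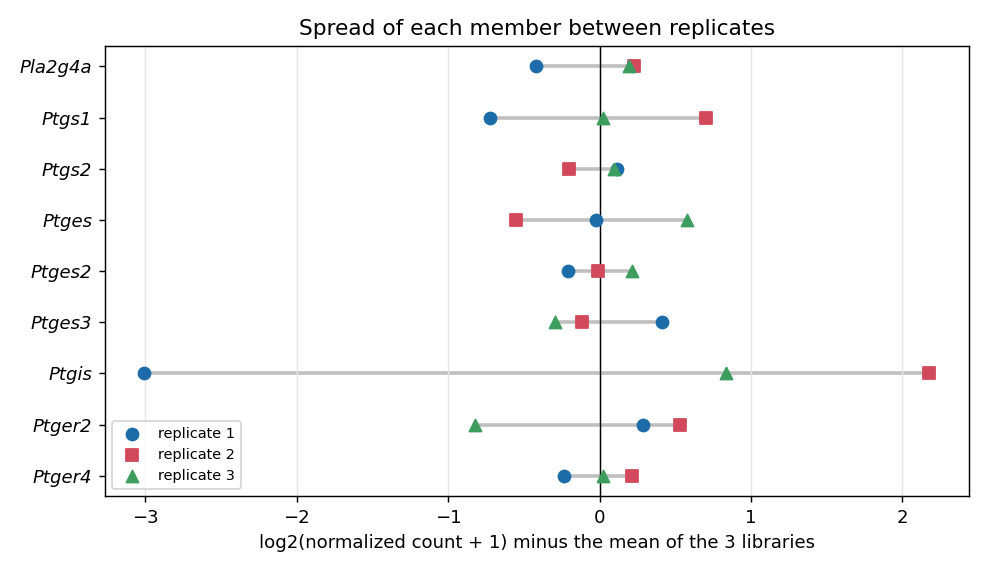
The log2(normalized count + 1) of each member with reads minus its mean over the 3 libraries, with a symbol per replicate and a grey line from the lowest to the highest library. Ptgs2 spans 0.32 log2 units and Ptgis spans 5.19, with replicate 1 lowest and replicate 2 highest for Ptgis and Ptgs1.

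The pattern of Ptgs2 over the 3 libraries was common. Among 9989 genes that averaged 100 or more normalized counts, 409 (4.09%) lay within a Euclidean distance of 0.1 from it on centred log2 values, and the closest were Atp6v1e1, a subunit of the vacuolar proton pump, at 3846, 3093 and 3789 normalized counts, then Slc35a2 and Rtca. The pattern of Ptges was rare, with 18 genes (0.180%) within the same distance. The nearest was Osbpl3, an oxysterol-binding protein, at 1403, 973 and 2171 normalized counts, followed by Ece2 and the transcription factor gene Foxf1. With 3 points a likeness of pattern describes these libraries only.

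The rest of the pathway was read from lists of related genes, 90 in all without the members, of which 59 were detected. A range above 2-fold was found in 23 of those (39.0%), beside the 21.6% of all detected genes, and without replicate 2 in 5 (8.47%), beside 6.06%. So most of the spread in these lists involved replicate 2, as it did over all genes. Among 20 other phospholipases and lipases that release arachidonate, 6 were detected and 2 exceeded that range. Plaa, a phospholipase A2 activating protein, was the most constant at 2081, 2105 and 2107 normalized counts, followed in mean level by Pla2g15, a lysosomal phospholipase, at 1589.9, 1547 and 1937. Mgll, the lipase that frees arachidonate from the endocannabinoid 2-arachidonoylglycerol, measured 1005, 211 and 1032, with replicate 2 low and the others 1.03-fold apart. No secreted phospholipase of group II, V or X was detected. Pla2g12a, of secreted group XII, was detected at 536, 196 and 389, a 2.73-fold range on the log2(normalized count + 1) scale.

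Of 7 other terminal synthases 5 were detected. Akr1b3, an aldose reductase with prostaglandin F synthase activity, measured 1236, 1394 and 1856 normalized counts, and its relative Akr1b8 measured 942, 1123 and 1069. Gstm2, a glutathione transferase, was the 1 gene of the list with a range above 2-fold, at 609, 1300.0 and 167, and 3.63-fold without replicate 2. Thromboxane synthase, Tbxas1, did not exceed 7.05 normalized counts in any library.

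Transport and breakdown genes were detected in 6 of 8 cases, 3 of them with a range above 2-fold, 1 without replicate 2. Slco2a1, the transporter that carries prostaglandins back into cells, measured 1753, 3122 and 3943 normalized counts, lowest in replicate 1. Hpgd, the dehydrogenase that starts prostaglandin breakdown, was at 54.7, 3.52 and 2.37, so that it was present above 10 in replicate 1 only, the library in which Ptgis was lowest. The reductase genes further down that route were much more abundant, Zadh2 at 1414, 2293 and 2321 and Ptgr1 at 2302, 943 and 1522, and these 2 ordered the libraries differently.

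Other prostanoid receptors varied more than the EP4 gene. Of 8 genes listed, 5 were detected and all 5 had a range above 2-fold, where 21.6% of all detected genes did. Ptger1, Ptgir and Ptgfrn were near the limit, at 2.04-fold, 2.10-fold and 2.19-fold on the log2(normalized count + 1) scale, and Ptger3 had 31, 16 and 25 reads. A count in so short a list is no result about the receptors as a group. Ptgfr, the prostaglandin F receptor, measured 107, 1228 and 228 normalized counts, an 11.4-fold range on the log2(normalized count + 1) scale, with replicate 2 5.40-fold above the next library and a range of 2.12-fold without it. Without replicate 2, Ptgfr was the 1 gene of the 5 that kept a range above 2-fold. Tbxa2r, the thromboxane receptor, had 15, 110 and 7 reads and was also high in replicate 2, at 77.5 normalized counts, with the other libraries 1.51-fold apart, and Ptgir, the prostacyclin receptor, measured 59.9, 127 and 83.0. Ptgir and Ptgfr ordered the libraries as Ptgis and Ptgs1 did, with replicate 1 lowest and replicate 2 highest. For Ptgir, replicates 1 and 3 were within counting error of each other (69 and 70 reads, exact binomial test, adjusted p = 0.102). Ptgfrn, a negative regulator of the prostaglandin F receptor, measured 868, 776 and 1697. The other prostaglandin E2 receptors, added here after their values were seen, were lower than Ptger4 in every library per kb, with Ptger1 at 13.4, 11.1 and 22.8 and Ptger3 at 4.73, 1.98 and 5.21 normalized counts per kb against 52.5, 71.6 and 62.8 for Ptger4.

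**Figure D5:**
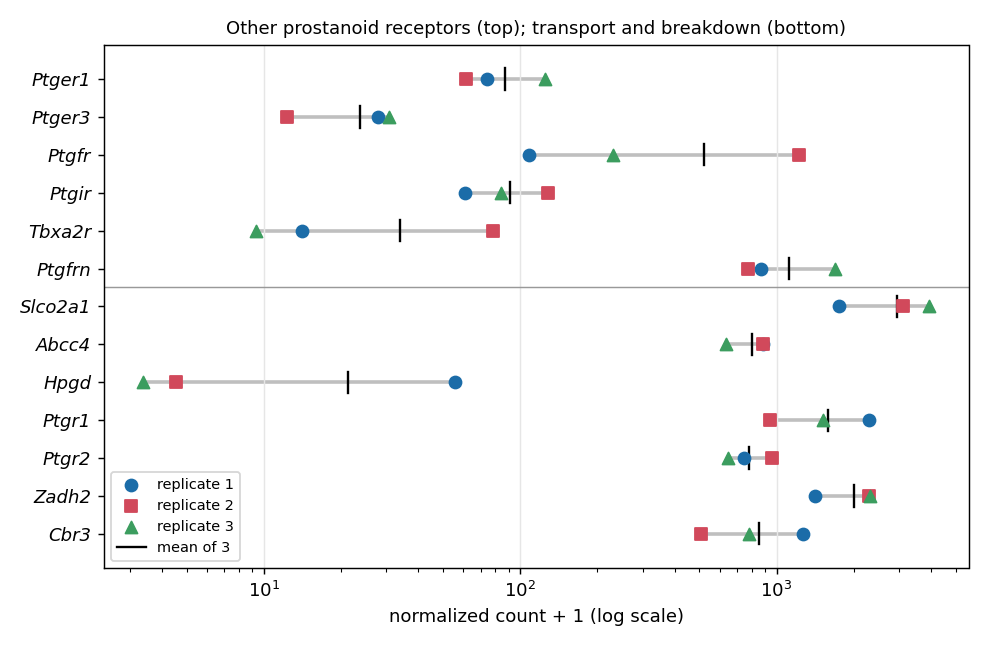
Normalized count + 1 (log axis) of other prostanoid receptor genes (above the line) and of transport and breakdown genes (below it) in each library, with a symbol per replicate, a grey line from the lowest to the highest library and a black tick at the mean of 3. Ptgfr and Tbxa2r are highest in replicate 2, and Hpgd is highest in replicate 1 at 54.7 normalized counts.

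Genes of the neighbouring lipoxygenase arm were mostly below detection. Of 9 listed, 2 were detected. Lta4h, leukotriene A4 hydrolase, measured 1327, 1382 and 1687 normalized counts and Alox12, a 12-lipoxygenase gene, 148, 46.5 and 108, 1.37-fold apart without replicate 2. Aloxe3 had 23, 25 and 7 reads, and Alox5, needed for all leukotrienes, did not exceed 4.93.

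Factors known to drive Ptgs2 transcription were all detected, and 8 of 9 had their lowest level in replicate 2, as Ptgs2 did, where 4546 of 12202 detected genes of unique name were lowest in that library. The exception was Creb1, at 623, 820.2 and 561 normalized counts, which was highest in replicate 2. For Fosl1 and Usf1, replicates 2 and 3 were within counting error of each other (exact binomial test, adjusted p = 0.113 and 0.109). Egr1 had 23 and 26 reads in those libraries. Cebpb and Cebpd, whose products bind C/EBP motifs such as the one printed above, measured 1137, 272 and 897 and 1927, 392 and 1767 normalized counts. Their replicate 2 level was 3.29-fold and 4.49-fold under the next library on the log2(normalized count + 1) scale, against 1.23-fold for Ptgs2. Without replicate 2 their libraries were 1.27-fold and 1.09-fold apart, and none of the 9 factors had a range above 2-fold. Jun measured 4557, 2805 and 4179, Rela 2553, 2374 and 2848 and Fosl1, the gene of the AP-1 protein Fra-1, 2030.2, 1660.1 and 1761. Egr1, an immediate early gene downstream of ERK, was low throughout, at 57.3, 16.2 and 30.8.

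Regulators of Ptgs2 messenger RNA stability, which act through AU-rich elements, were all 7 detected, with 1 range above 2-fold. Elavl1, the gene of the stabilizing protein HuR, measured 2006, 1997 and 1789 normalized counts, and Zfp36, whose product tristetraprolin promotes decay, measured 1147, 1078 and 901. Khsrp measured 1176, 1673 and 1184. Celf2, a translational repressor of Ptgs2, was the variable one at 274, 653 and 169, highest in replicate 2 and 1.61-fold apart between the others.

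Of the 5 genes of the glucocorticoid brake, Anxa1 measured 37536, 34853 and 35838 normalized counts, the glucocorticoid receptor gene Nr3c1 931, 1069.6 and 1002, and Tsc22d3, a target that encodes GILZ, 2381, 1272 and 2071. Hsd11b1, which regenerates active glucocorticoid inside cells, was lower at 63.4, 62.7 and 16.6 and was the 1 gene of this list with a range above 2-fold.

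Among 9 cAMP-responsive genes, which can respond to EP2 and EP4 signalling as well as to many other inputs, 8 were detected and 3 had a range above 2-fold, none of them without replicate 2. Nr4a1, an orphan nuclear receptor, measured 666, 1608 and 684 normalized counts, Pde4b, a phosphodiesterase that degrades cAMP, 744, 682 and 887, and Crem 621, 376 and 554. Nr4a1 was highest in replicate 2, with the other libraries 1.03-fold apart, and Crem lowest there, so the list did not move as one.

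Cytokines known to induce Ptgs2, and their receptors, were detected in 4 of 6 cases. Il6 measured 788, 1430.4 and 1491 normalized counts, and the receptor genes Tnfrsf1a and Il1r1 measured 3918, 4493 and 4343 and 735, 1309 and 584. Il1a measured 27.8, 12.7 and 90.1 and Tnf 52.1, 3.52 and 35.6, both lowest in replicate 2, as Ptgs2 and Ptges were. Without that library Il1a still ranged 3.16-fold and Tnf 1.45-fold. The myeloid genes Cd14 and Lyz2 were lowest in replicate 2 as well. Csf1r and Cd68, the other 2 leukocyte and macrophage markers detected, were lowest in replicate 1 and highest in replicate 2. For Csf1r, replicates 2 and 3 were within counting error of each other (exact binomial test, adjusted p = 0.424). For Cd68 every pair was (adjusted p = 0.164, 0.66 and 0.616). The sums of all 8 leukocyte and macrophage markers, at 380.3, 429.8 and 1196, were lowest in replicate 1. The part of myeloid cells, which also make these cytokines, in the Il1a and Tnf levels was not tested.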

How the data were processed

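RNA-seq libraries (TruSeq Stranded mRNA, 50 bp single-end reads, HiSeq4000) of 3 samples in 1 group were used. By the study's methods and the submitters' processing notes, the authors checked reads with FastQC 0.11.5, aligned them to mm10 with TopHat2 2.0.13, filtered with SAMtools 0.1.19.24, counted per gene with HTSeq 0.5.3p3 and normalized with DESeq. By those methods, only reads that mapped uniquely were included. The annotation and strand setting are not given in the sources used here. The deposited signal is normalized counts, that is, reads divided by 1 size factor per library (1.15, 1.42 and 0.844). Dividing by the value of 1 read gave whole reads for 100% of values, within 0.1 reads, and these reads summed to 22540518, 27037783 and 17244505. A further 3 columns of per-sample values matched no sample and were not used.

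Means and SDs are of normalized counts, and log2 values were taken after adding a pseudocount of 1. Detection needed at least 10 normalized counts in every library. For each pair of libraries, the recovered reads of every gene with 10 or more in that pair were set against the ratio of size factors (exact binomial test, two-sided), and p-values were adjusted after Benjamini and Hochberg, with 0.05 as the threshold (Python 3.11.15, numpy 2.4.6, scipy 1.17.1, pandas 2.3.3). As the recovered reads hold 1 group, no count model between groups could be fitted. TMM factors came from edgeR 4.0.16 in R 4.3.3. Gene positions and merged exon lengths came from GENCODE M21 on GRCm38, in which 39368 of the rows matched 1 gene name. Promoter windows came from RefSeq (GRCm38.p6). The recovery of reads and the tests were tested on simulated data.

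Genes named were all members, the 3 most abundant of each pathway list and those of a list with over a 3-fold range at a mean of at least 10 normalized counts, the 3 nearest patterns to Ptgs2 and Ptges, and marker or overlapping genes beside a result. The members and lists were chosen with earlier results of these data known, and the smooth muscle and pericyte markers and the overlapping neighbours were added after the values were seen. Creb1 and Pla2g12a were also named after the values were seen. Alternatives tried were TMM and total-read scaling, each replicate left out, other detection minimums, fold limits and pseudocounts, the adjusted p alone, and the longest transcript length. The libraries are biological replicates per the labels, and tests between pairs of them cover counting error only.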

Additional observations from a re-analysis of the deposited data

How the results depend on the processing

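Under TMM factors no count for the members changed. With totals of reads, 3 signs among the differences of a replicate from the others turned, and the other counts kept their values. With no detection minimum 4 members exceeded the 2-fold range, and with a minimum of 5 there were 9 detected. Fold limits moved more counts. At a limit of 1.5 the members with a range above it numbered 5 in place of 3, and those standing apart 3, 2 and 2 in replicates 1, 2 and 3 in place of 1 each. At a limit of 3, 1 member (Ptgis) exceeded the range. A pseudocount of 10 left 0 members apart in replicate 3. The adjusted p without a fold limit gave 8, 8 and 7 calls for the pairs 1 and 2, 1 and 3, and 2 and 3. With the longest transcript length, 2 members (Ptges2 and Ptger4) changed places in the order per kb. With replicates left out, the members with a range above 2-fold numbered 1 to 2, of which 1 was without replicate 2. Members that changed rank per kb numbered 0 to 2, the 2 being Ptges and Ptges3 without replicate 3, and signs that turned numbered 1 to 5. The pathway genes with a range above 2-fold numbered 5 to 16 in place of 23, the 5 without replicate 2, an alternative chosen after seeing the data. Under both other scalings no member mean moved by more than 1 SD. With replicates left out the Ptgis mean ran from 393 to 1303 in place of 885. Without a replicate, a count of members standing apart from both others could not be made, and pair tests do not involve the library left out.

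No paired analysis was possible because all libraries belong to 1 group. With 3 libraries of 1 condition and no comparison condition, depth limited Ptger2 (6 to 28 reads) and Ptgds (0 reads), and for the other members the spread between libraries was larger than counting error.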
